A study of Schizosaccharomyces pombe with 3 samples.

Results

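The arms bordering the centromeres are the 6 stretches of chromosome arm, each about 50 kb long, that lie to the left and right of the centromere intervals of the 3 chromosomes of fission yeast, Schizosaccharomyces pombe. They were chosen by position alone: a probe of the tiling array counted when its start lay in one of 6 fixed ranges. On chromosome I the ranges were 3700001 to 3751700 on the left and 3791001 to 3840000 on the right. On chromosome II they were 1540001 to 1596700 and 1648301 to 1700000, and on chromosome III 1010001 to 1064400 and 1142701 to 1200000. Together they span 320.8 kb and hold 1069 of the 41551 genome probes: 172 and 164 on chromosome I, 189 and 172 on chromosome II, and 182 and 190 on chromosome III, left side first. The other arms, outside these stretches, the centromere intervals and the outer 50 kb of the chromosomes, hold 38944 probes. All positions are those of the array, counted from 1. The build of the genome that underlies them is not stated in any source used here.

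Cohesin, a protein ring, keeps sister chromatids joined from DNA replication until anaphase, and Psc3 is one of its subunits in fission yeast. A fission yeast centromere has a central core, on which the kinetochore is built, flanked by outer repeats packed in heterochromatin. That heterochromatin depends on the enzyme Clr4, which methylates histone H3 at lysine 9. The heterochromatin protein Swi6 binds the methylated histone and recruits cohesin. The arm DNA beyond the outer repeats is largely ordinary gene-bearing chromatin, where cohesin accumulates above all between convergent genes, that is, genes transcribed toward each other.

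Psc3 fused to GFP was precipitated from cross-linked cells with an antibody against GFP. The ChIP DNA, labelled with Cy5, was hybridised together with input DNA, labelled with Cy3, to 1 tiling array per group. In all 3 groups the cross-linking used paraformaldehyde for 30 min at 18 °C and dimethyl adipimidate for 45 min. The clr4d cells lack Clr4 and grew in rich medium at 30 °C. In cdc10-v50 the transcription factor Cdc10, which cells need to enter S phase, fails at high temperature. These cells grew at 26 °C and were held in G1 by 4 h at 35 °C, so that this group differs from the others in temperature as well as in genotype and cell cycle stage. Wild-type cells, with the genotype mat1Msmto leu1-32 ade6-216 and the tagged allele Psc3-GFP::kanMX, grew at 30 °C. The labels give the mutants' genotypes only as clr4d and cdc10-v50, while the sample titles name Psc3-GFP for all 3 groups.

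The value of a probe is log2 of ChIP over input signal, centred on the median of all genome probes of its array, so that 0 is the middle of the genome and 1 is 2-fold above it. Each group is 1 array. No difference between groups could therefore be set against replicates or tested, and every SD below is between neighbouring probes of 1 array. The input signal at 5 probes near the place of clr4 had a median of 7.51 in clr4d, against 1676 in cdc10-v50 and 1689 in wild type. These probes were located by their low input in clr4d, so the values describe the deletion and are no independent check of the label. The scanner software was version 11.5.1.1 for clr4d and cdc10-v50 and 11.0.1.1 for wild type, so that wherever a mutant is set against wild type, scan and genotype cannot be told apart. Saturation was recorded in wild type alone. The saturation limit was 65526 for wild type, 777470 for clr4d and 777453 for cdc10-v50, so that saturation cannot be compared between wild type and the mutants. There the ChIP channel was saturated at 114 of the 1069 probes, or 10.7%, compared with 3.62% on the other arms. The wild-type ratio of such a probe is only a minimum. In cdc10-v50, 26 of the 1069 spots were non-uniform and were left out, and the headers of that array carry a mark to evaluate its quality.

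Without Clr4, the median ratio of Psc3 pooled over the bordering arms was close to the level of the genome at large. In G1-arrested cdc10-v50 and in wild type the pooled median stood above that level. The median ratio was 0.09 in clr4d (SD 0.68 between 1069 probes), 0.44 in cdc10-v50 (SD 0.63, 1043 probes) and 0.54 in wild type (SD 0.65, 1069 probes). On the other arms the medians were -0.01, -0.03 and -0.04 in the same order. The sides differed in clr4d, with medians from -0.32 on the left of chromosome II to 0.34 on the right of chromosome I. The median of the probe-wise difference was -0.51 for clr4d minus wild type (SD 0.57), -0.42 for clr4d minus cdc10-v50 (SD 0.42) and -0.09 for cdc10-v50 minus wild type (SD 0.40). The other arms gave -0.002, -0.01 and 0.02. Over the 955 probes not saturated in wild type the 3 differences were -0.51, -0.41 and -0.09.

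Of the 1069 probes, 890 were lower in clr4d than in wild type, or 83.3%, against a background of 51% over all arm probes. At least 2-fold lower were 175 probes, or 16.4%, against 3.21% of all arm probes, and at least 2-fold higher were 15, or 1.4%, against 4.92%. Between cdc10-v50 and wild type 626 of 1043 probes were lower in cdc10-v50, or 60%, against 47.9%. At least 2-fold lower were 11, or 1.05% against 0.862%, and at least 2-fold higher 2, or 0.192% against 1.42%. Between clr4d and cdc10-v50, whose arrays share a scanner software version, 890 of 1043 probes were lower in clr4d, or 85.3%, against 52.3%. At least 2-fold lower were 52, or 4.99% against 1.76%, and at least 2-fold higher 4, or 0.384% against 2.01%.

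Between clr4d and wild type the ChIP channel differed more than the input. With each channel set to the median of the other arms, log2 Cy5 over the bordering arms had a median of 0.02 in clr4d, 0.38 in cdc10-v50 and 0.65 in wild type. Log2 Cy3, the input, had medians of -0.02 in clr4d, -0.05 in cdc10-v50 and 0.01 in wild type. The probe-wise difference clr4d minus wild type was -0.60 in Cy5 and -0.06 in Cy3. For cdc10-v50 minus wild type it was -0.15 in Cy5 and -0.03 in Cy3. Over the probes not saturated in wild type, clr4d minus wild type was -0.64 in Cy5 and -0.13 in Cy3. On single sides the input differed by more. The Cy3 difference clr4d minus wild type was -0.21 on the right of chromosome I, -0.18 on the right of chromosome III and 0.10 on the right of chromosome II, where the Cy5 differences were -0.57, -0.85 and -0.55. For cdc10-v50 minus wild type on the right of chromosome I, Cy3 differed by -0.25 and Cy5 by -0.35, so that there the input moved nearly as far as the ChIP channel.

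All 6 sides were lower in clr4d than in wild type and than in cdc10-v50. The smallest difference clr4d minus wild type was -0.40 (SD 0.54, 164 probes) on the right of chromosome I, and the largest was -0.77 (SD 0.49, 190 probes) on the right of chromosome III. The other 4 sides gave -0.42 on the left of chromosome I, -0.56 and -0.55 on the left and right of chromosome II, and -0.45 on the left of chromosome III. For clr4d minus cdc10-v50 the sides ranged from -0.54 on the right of chromosome II to -0.26 on the right of chromosome I. For cdc10-v50 minus wild type they ranged from -0.14 on the right of chromosome I to -0.002 on the right of chromosome II. The SD between probes was 0.35 to 0.51 per side, which is the spread of single probes and not the precision of a median. After loess normalization of each array, cdc10-v50 minus wild type was above 0 on 3 sides. These were the left and right of chromosome I (0.12 and 0.01) and the right of chromosome II (0.03).

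**Figure D1:**
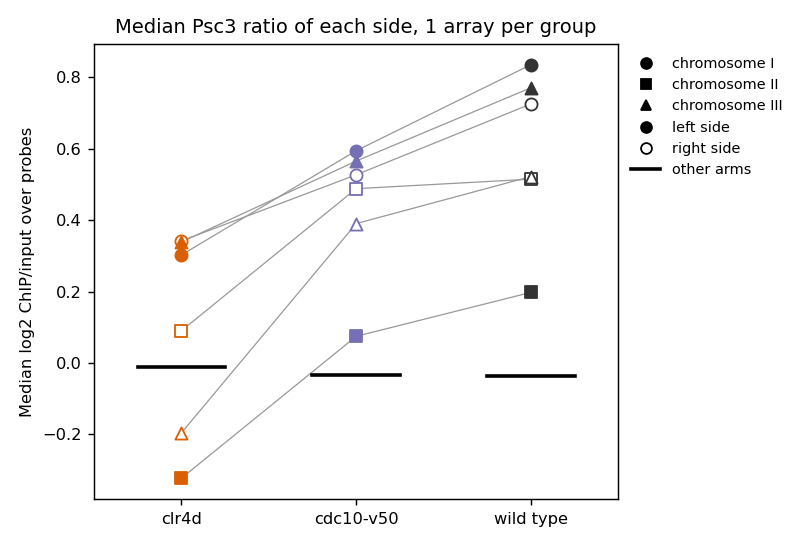
Median log2 ChIP/input of each of the 6 sides (y axis) in clr4d, cdc10-v50 and wild type (x axis); marker shape gives the chromosome, filled markers are left sides and open ones right sides, grey lines join a side across arrays, and black bars are the medians of the other arms. Every side is lowest in clr4d, where the sides spread from -0.32 to 0.34, and highest in wild type, where they spread from 0.20 to 0.84.

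The level of a side differed between chromosomes in every array. The left of chromosome II was the lowest side in all 3, with medians of -0.32 in clr4d, 0.07 in cdc10-v50 and 0.20 in wild type. The left of chromosome I had 0.30 in clr4d, 0.59 in cdc10-v50 and 0.84 in wild type, and was the highest side in cdc10-v50 and in wild type. Without the probes saturated in wild type it was not the highest, with 0.45 in cdc10-v50 and 0.46 in wild type. The right of chromosome I then had 0.52 and 0.70. The left of chromosome III had 0.34, 0.57 and 0.77 in clr4d, cdc10-v50 and wild type. The right of chromosome III had -0.20 in clr4d, 0.39 in cdc10-v50 and 0.52 in wild type, so that the 2 sides of this centromere were further apart in clr4d than in the other arrays. In clr4d, 2 sides had a median below 0, the left of chromosome II and the right of chromosome III. The right of chromosome II, at 0.09, fell just below 0 under loess (-0.01) and without the saturated probes (-0.004). In cdc10-v50 and wild type none did.

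All arms were divided into 50-kb stretches counted from the centromere intervals. For clr4d minus wild type, the first 50 kb of each side stood near the low end of the range. Of 241 such stretches, those 6 held ranks 3 to 11 from the lowest for clr4d minus wild type, with medians from -0.78 to -0.40, while the other 235 had a median of 0.01. Ranked from the highest ratio, they held places 8 to 233 in clr4d, 6 to 39 in cdc10-v50 and 2 to 32 in wild type. For cdc10-v50 minus wild type they lay at ranks 18 to 66 from the lowest, with medians from -0.14 to -0.04. The stretches as low as these for clr4d minus wild type were the outermost ones of chromosome I, with medians from -0.96 to -0.47, and 2 adjacent stretches 450 to 550 kb out on the right arm of chromosome II, with -0.91 and -0.67.

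**Figure D2:**
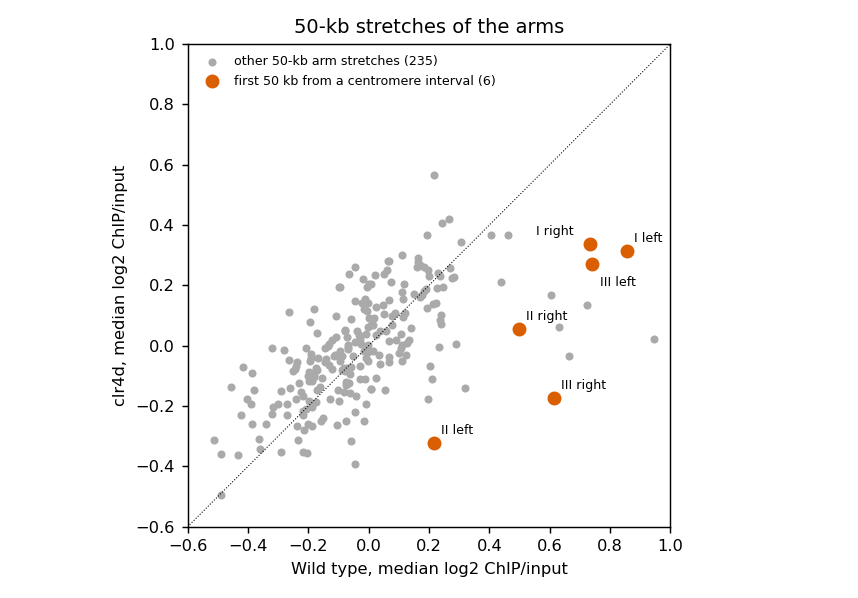
Median log2 ChIP/input in clr4d (y axis) against wild type (x axis) of the 241 50-kb stretches of the arms; the 6 first stretches from a centromere interval are orange and named by chromosome and side, the dotted line marks equal values. The 6 lie below the line, by a median probe-wise difference of -0.78 to -0.40.

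Pooled over the 6 sides, the difference between clr4d and wild type was greatest in the 10 kb next to the centromere interval, though not on every side. Over the 6 sides together, clr4d had a median of 0.22 from 0 to 10 kb, -0.18 from 10 to 20 kb, -0.08 from 20 to 30 kb, 0.18 from 30 to 40 kb and 0.26 from 40 to 50 kb. In cdc10-v50 the same steps gave 0.59, 0.23, 0.36, 0.43 and 0.60, and in wild type 1.01, 0.29, 0.47, 0.44 and 0.72. Among these pooled steps the lowest in each array was that from 10 to 20 kb. On the left of chromosome I, however, that step was the highest in every array (1.11 in clr4d, 1.25 in cdc10-v50 and 1.35 in wild type). On the left of chromosome III it was the highest in cdc10-v50 (0.98) and in wild type (1.38). The 72 probes of the bordering arms past 50 kb had medians of -0.18 in clr4d, -0.03 in cdc10-v50 and 0.001 in wild type. The sides contributed unevenly to these, with 22 probes on the left of chromosome II and 24 on the right of chromosome III. Clr4d minus wild type was -0.74 from 0 to 10 kb (SD 0.50, 200 probes) and lay between -0.53 and -0.42 in the 4 steps beyond. Clr4d minus cdc10-v50 ran from -0.51 next to the interval to -0.31 between 30 and 40 kb. Cdc10-v50 minus wild type was -0.18 from 0 to 10 kb and between -0.11 and 0.01 beyond. By side, clr4d minus wild type was largest next to the interval on the left of chromosomes I and II and the right of chromosome III. On the right of chromosome II it was -0.52 from 0 to 10 kb and -1.198 from 20 to 30 kb. On the right of chromosome I it was -0.45 from 0 to 10 kb and -0.53 from 40 to 50 kb. On the left of chromosome III it was -0.55 from 0 to 10 kb and -0.63 from 10 to 20 kb.

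Taken by side and 10-kb step, all 30 stretches were lower in clr4d than in wild type, from -1.198 between 20 and 30 kb on the right of chromosome II to -0.01 between 20 and 30 kb on the left of chromosome III. All 30 were also lower in clr4d than in cdc10-v50, from -0.73 to -0.13. Cdc10-v50 was lower than wild type in 20 and higher in 10, from -0.51 to 0.43, both extremes being on the right of chromosome II.

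The window of 2 kb that touches the interval was above 0 on every side in each array. It was above 2-fold on every side in wild type alone. Averaged over the 6 sides, it had a ratio of 0.65 in clr4d (range 0.27 to 1.15), 1.48 in cdc10-v50 (0.76 to 1.90) and 1.50 in wild type (1.17 to 1.71). Clr4d was lower than both other arrays on 6 of 6 sides there, and cdc10-v50 was lower than wild type on 3 of 6. In the next window, 2 to 4 kb out, the means were 0.18 in clr4d, 0.72 in cdc10-v50 and 1.06 in wild type, and cdc10-v50 was lower than wild type on 6 of 6 sides, by -0.34 on average. From 4 to 6 kb it was again lower on 6 of 6 sides, by -0.30 on average, and the means were 0.06, 0.47 and 0.76. Of the 40 probes in the first window, 14 were saturated in wild type, so that its wild-type mean is a lower bound.

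**Figure D3:**
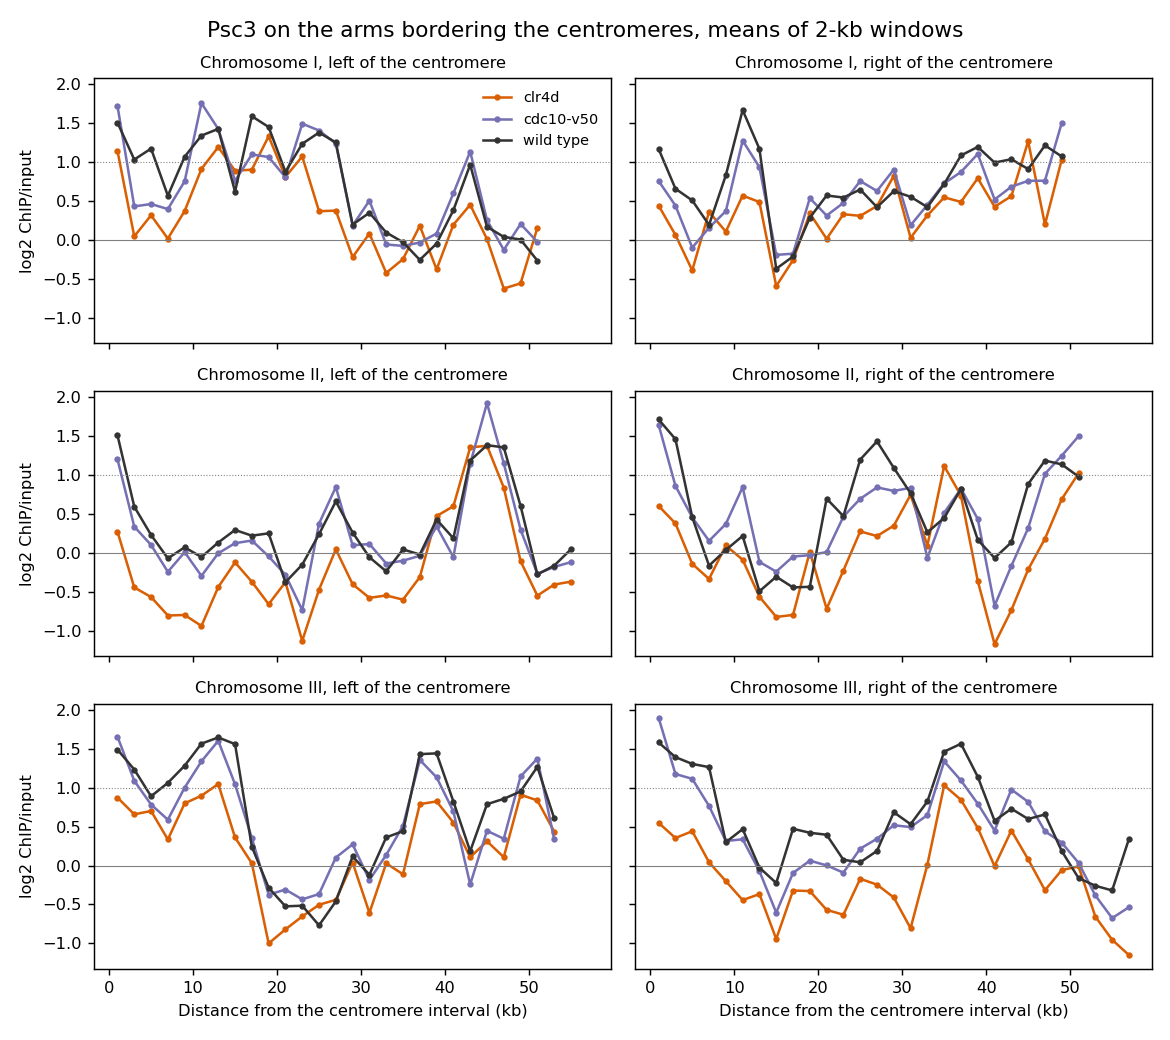
Mean log2 ChIP/input (y axis) of 2-kb windows against distance from the centromere interval in kb (x axis), 1 panel per side, for clr4d, cdc10-v50 and wild type; the dotted line marks 2-fold. The clr4d line mostly runs below the others, with a mean difference of -0.85 against wild type in the first window.

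Beyond 50 kb the difference was smaller. From 50 to 100 kb the medians over the 6 arms were 0.01 in clr4d, -0.02 in cdc10-v50 and 0.06 in wild type, and clr4d minus wild type was -0.16, with 5 of 6 sides below 0. From 100 to 150 kb it was -0.12 and from 150 to 200 kb -0.04. The next 200 kb gave values between -0.04 and 0.04. In steps of 10 kb, clr4d minus wild type was -0.51 from 40 to 50 kb, -0.23 from 50 to 60 kb and -0.21 from 60 to 70 kb. Clr4d minus cdc10-v50 was -0.06 from 50 to 100 kb, and cdc10-v50 minus wild type was -0.10.

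**Figure D4:**
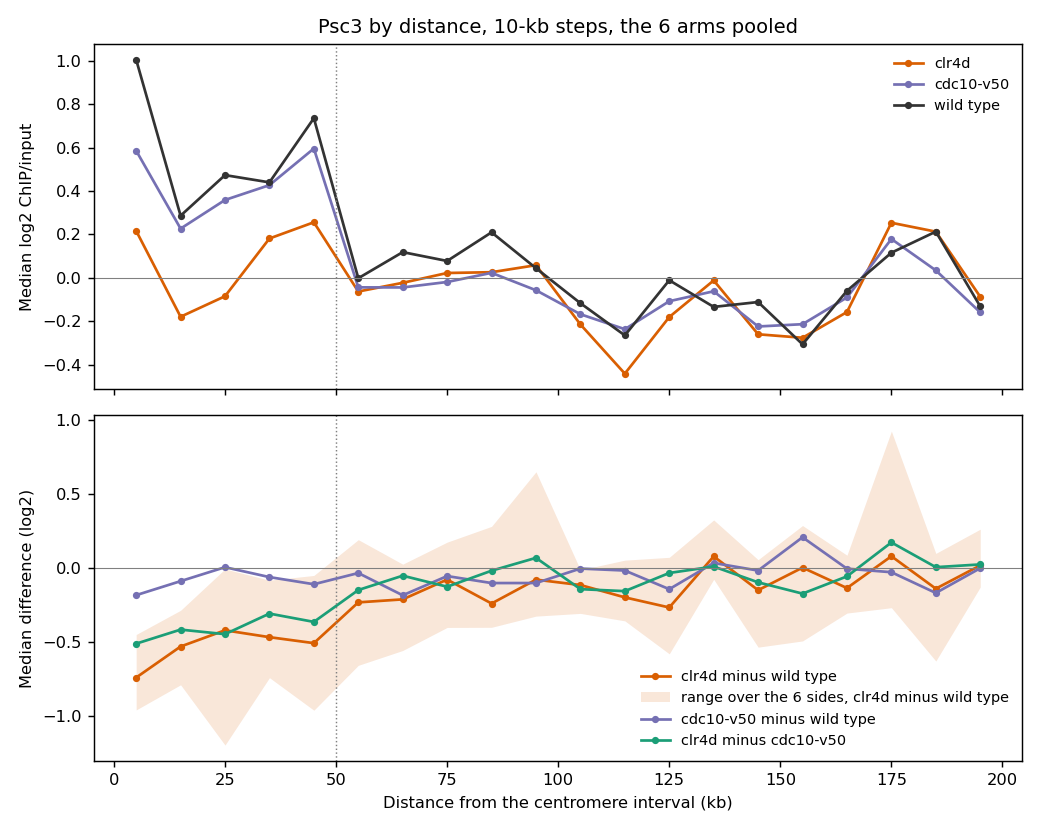
Median log2 ChIP/input in clr4d, cdc10-v50 and wild type (upper panel) and median probe-wise differences (lower panel) against distance from the centromere interval in kb, in 10-kb steps over the 6 arms; the band is the lowest to highest side for clr4d minus wild type and the dotted line marks 50 kb. Clr4d minus wild type is -0.74 in the first step and -0.23 in the first step past 50 kb.

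Of the 161 windows of 2 kb on the bordering arms, 12 had a ratio of at least 2-fold in clr4d, or 7.45% against 5.66% of all arm windows. In cdc10-v50 there were 35, or 21.7% against 5.81%, and in wild type 47, or 29.2% against 6.32%. The share in clr4d was closer to its background than the shares in the other arrays were to theirs. Between arrays, 19 windows were at least 2-fold lower in clr4d than in wild type, or 11.8% against 1.3%, and 0 were 2-fold higher, against 1.02%. By any amount, 142 of the 161 were lower, or 88.2% against 48.7%. Between cdc10-v50 and wild type no window differed 2-fold in either direction, against 0.233% lower and 0.433% higher over all arm windows, and 101 were lower by any amount, or 62.7% against 45.7%. Between clr4d and cdc10-v50, 4 windows were at least 2-fold lower in clr4d, or 2.48% against 1.23%, 0 were 2-fold higher, against 0.45%, and 146 were lower by any amount, or 90.7% against 51.5%.

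The 5 windows with the largest deficit in clr4d against wild type lay on chromosomes II and III. The window 56 to 58 kb out on the right of chromosome III had a ratio of -1.15 in clr4d, -0.53 in cdc10-v50 and 0.34 in wild type, a difference of -1.49 between clr4d and wild type (SD 0.39, 5 probes). The window 20 kb out on the right of chromosome II had -0.72, 0.01 and 0.70 in the same order, a difference of -1.41 (SD 0.18, 6 probes). The window 30 kb out on the right of chromosome III had -0.81 in clr4d, 0.49 in cdc10-v50 and 0.53 in wild type. In the first 2 of these cdc10-v50 stood between the other arrays, and in the last it was near the wild-type level. The window touching the interval on the left of chromosome II had 0.27 in clr4d, 1.201 in cdc10-v50 and at least 1.51 in wild type, where 6 of its 7 probes were saturated. The window 6 kb out on the right of chromosome III had 0.04, 0.76 and at least 1.26, with 3 of 6 probes saturated.

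The largest rises of clr4d over wild type were smaller than those deficits. The window 34 kb out on the right of chromosome II had 1.11 in clr4d, 0.51 in cdc10-v50 and 0.45 in wild type, a difference of 0.67 against wild type (SD 0.63, 7 probes). The other 4 lay 18 kb out on the same side, 36 and 50 kb out on the left of chromosome I and 40 kb out on the left of chromosome II, with differences of 0.45, 0.44, 0.42 and 0.41. Their SDs between probes ran from 0.34 to 0.82, and the difference at 50 kb turned to -0.06 under normexp background correction.

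Between cdc10-v50 and wild type, the largest deficits in cdc10-v50 were -0.88 in the outermost window on the right of chromosome III, -0.71 and -0.66 at 4 kb on the left and right of chromosome I, and -0.69 at 20 kb and -0.61 at 40 kb on the right of chromosome II. All 5 were also lower in clr4d than in wild type, by -1.49 to -0.86; both comparisons share the wild-type array. The largest rises were 0.60 at 10 kb on the right of chromosome II, where the ratios were -0.09 in clr4d, 0.84 in cdc10-v50 and 0.22 in wild type, and 0.54 at 26 kb on the left of chromosome III, where they were -0.44, 0.10 and -0.46. The first of these windows held 1 saturated wild-type probe among 7, so that its rise is an upper limit. The other 3, at 44 kb on the left of chromosome II, 50 kb on the right of chromosome II and 10 kb on the left of chromosome I, held saturated wild-type probes too (5 of 6, 1 of 5 and 7 of 7), and their rises of 0.54, 0.52 and 0.45 are likewise upper limits.

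Between clr4d and cdc10-v50 the largest deficits in clr4d were next to the interval on the right of chromosome III (0.55 in clr4d and 1.90 in cdc10-v50) and on the right of chromosome II (0.60 and 1.64). The others were at 30 kb on the right of chromosome III (-0.81 and 0.49) and at 24 and 10 kb from the centromere on the left of chromosome I, where clr4d had 0.37 and 0.91 and cdc10-v50 1.41 and 1.76. The largest rises were 0.65 at 40 kb on the left of chromosome II, 0.60 at 34 kb on the right of chromosome II, 0.51 at 44 kb on the right of chromosome I, 0.31 at 42 kb on the left of chromosome III and 0.27 at 18 kb on the left of chromosome I.

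A peak was called where the running mean of 3 neighbouring probes reached 1 at no fewer than 3 probes in a row. The bordering arms held 13 in clr4d, 21 in cdc10-v50 and 22 in wild type, or 4.05, 6.55 and 6.86 per 100 kb. The other arms held 2.55, 2.22 and 2.16 per 100 kb. Peaks covered 25.2 kb of the bordering arms in clr4d (7.86%), 58.5 kb in cdc10-v50 (18.2%) and 91.8 kb in wild type (28.6%), while they covered 6.17%, 5.85% and 6.16% of the other arms. The median peak was 1.5 kb long in clr4d, 2.4 kb in cdc10-v50 and 3.9 kb in wild type. On the other arms the medians were 1.8, 2.1 and 2.4 kb, so that in wild type peaks near the centromeres were both denser and longer.

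Most clr4d peaks lay where wild type had one. Of the 13 clr4d peaks, 12 overlapped a wild-type peak (92.3%) and 11 a cdc10-v50 peak (84.6%) by at least 1 base. For the clr4d peaks on the other arms the shares were 52.3% and 58.7%. Wild-type and cdc10-v50 peaks covered 28.6% and 18.2% of the bordering arms, against 6.16% and 5.85% of the other arms. Shares of overlap with them therefore cannot be compared directly between the 2 regions. Of the 22 wild-type peaks, 10 overlapped a clr4d peak (45.5%) and 16 a cdc10-v50 peak (72.7%), compared with 61.9% and 69.4% of the wild-type peaks on the other arms. Of the 21 cdc10-v50 peaks, 10 overlapped a clr4d peak (47.6%) and 17 a wild-type peak (81%), compared with 66.8% and 65.6% on the other arms. Peaks present in all 3 arrays numbered 11 in clr4d, 10 in cdc10-v50 and 10 in wild type. On the other arms they numbered 134 of 298, 132 of 259 and 133 of 252 in the same order. Peaks found in 1 array only numbered 1 in clr4d, 4 in cdc10-v50 and 6 in wild type. On the other arms they numbered 101 of 298, 48 of 259 and 54 of 252.

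By height, taken as the highest running mean, the top 3 clr4d peaks were at 1550401 to 1555200 on the left of chromosome II (1.71), 1014001 to 1015500 on the left of chromosome III (1.64) and 3732301 to 3735000 on the left of chromosome I (1.63). All 3 were shared by the other arrays. The top 3 of cdc10-v50 were at 1143301 to 1148700 on the right of chromosome III (2.13), next to the interval, at 1549801 to 1554300 on the left of chromosome II (2.08) and at 3750001 to 3751500 on the left of chromosome I (1.94), also next to the interval. The top 3 of wild type were at 1177201 to 1182300 on the right of chromosome III (1.96), 1595101 to 1596600 on the left of chromosome II (1.82), next to the interval, and 1048501 to 1058100 on the left of chromosome III (1.82), the longest peak at 9.6 kb. Each of these wild-type peaks held saturated probes (5, 4 and 4), so that its height is a lower bound.

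Within 1 kb of the interval, clr4d had a peak on 1 side, the left of chromosome I, cdc10-v50 on 4 sides and wild type on all 6. Over the wild-type peak on the left of chromosome II the mean ratio was 0.23 in clr4d, 1.14 in cdc10-v50 and 1.57 in wild type. Over that on the right of chromosome II it was 0.52 in clr4d, 1.19 in cdc10-v50 and 1.57 in wild type. Over that on the right of chromosome III it was 0.33, 1.203 and 1.37 in the same order. On the right of chromosome I it was 0.28, 0.71 and 1.16, and on the left of chromosome III 0.78, 1.39 and 1.39. On the left of chromosome I the ratios were closest, with 0.75, 1.202 and 1.35. These peaks were chosen by their wild-type height, which favours wild type in such a comparison.

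The peak present in clr4d alone lay at 1682701 to 1684500 on the right of chromosome II, with a mean of 1.21 in clr4d, 0.63 in cdc10-v50 and 0.42 in wild type. Of the 6 peaks found in wild type alone, the longest lay at 1672801 to 1678500 on the same side, with means of 0.27, 0.79 and 1.26. The peak around 1550 kb on the left of chromosome II, present in all 3 arrays, had means over its wild-type extent of 1.08 in clr4d, 1.35 in cdc10-v50 and at least 1.33 in wild type, where 15 of its probes were saturated. It was the only clr4d peak on that side.

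The deficit in clr4d was of about the same size inside and outside peaks. To keep the choice apart from the comparison, probes were divided by the peaks of the array that was not compared. Inside the cdc10-v50 peaks, clr4d minus wild type had a median of -0.53 (SD 0.48, 194 probes), with ratios of 0.86 in clr4d and 1.39 in wild type. Outside them it was -0.51 (SD 0.58, 875 probes), with -0.10 in clr4d and 0.37 in wild type. On the other arms the same division gave -0.07 inside and 0.002 outside. Clr4d minus cdc10-v50 was -0.47 inside the wild-type peaks (306 probes) and -0.39 outside (763 probes), against -0.02 and -0.01 on the other arms. Cdc10-v50 minus wild type was 0.15 inside the clr4d peaks (84 probes) and -0.10 outside (985 probes). Over the unsaturated probes the first of these was 0.10 (54 probes). On the other arms this difference was -0.02 inside the clr4d peaks and 0.03 outside.

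Genes could be named on 1 of the 6 sides. The input signal was compared with the GC content of the reference assembly ASM294v3 at shifted positions, and on the left of chromosome III the best fit was at a shift of -180 bp (r = 0.41 across 182 probes, and 0.33 with no shift). On the other sides the best shift was -1040, 4420, -880, -1780 and -940 bp, too far to place genes. The part of the left of chromosome III nearest the centromere fitted only weakly, best at 220 bp (r = 0.28 across 91 probes), so that names there are less certain. These correlations run across probes of 1 array set and carry no test. Of 25 protein-coding genes on this side, 23 had at least 3 probe centres inside and were measured. Each gene is given by the mean of those probes.

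The genes of this side stood above the rest of the left arm of chromosome III in all 3 arrays. The median gene had a ratio of 0.50 in clr4d, 0.68 in cdc10-v50 and 0.88 in wild type. The 337 genes measured between 50 and 1000 kb had medians of 0.03, -0.001 and -0.06. Clr4d was lower than wild type in 21 of the 23, or 91.3% against a background of 43.6% of 360 genes of the arm, with a median difference of -0.50 (SD 0.34 between genes). None was 2-fold lower, against 1.39%. Cdc10-v50 was lower than wild type in 16, or 69.6% against 42.8%, with a median of -0.09. Clr4d was lower than cdc10-v50 in 20, or 87% against 49.7%, with a median of -0.34. Peaks overlapped 5 of the 23 in clr4d, or 21.7% against 14.4%, 11 in cdc10-v50, or 47.8% against 11.1%, and 13 in wild type, or 56.5% against 11.7%.

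**Figure D5:**
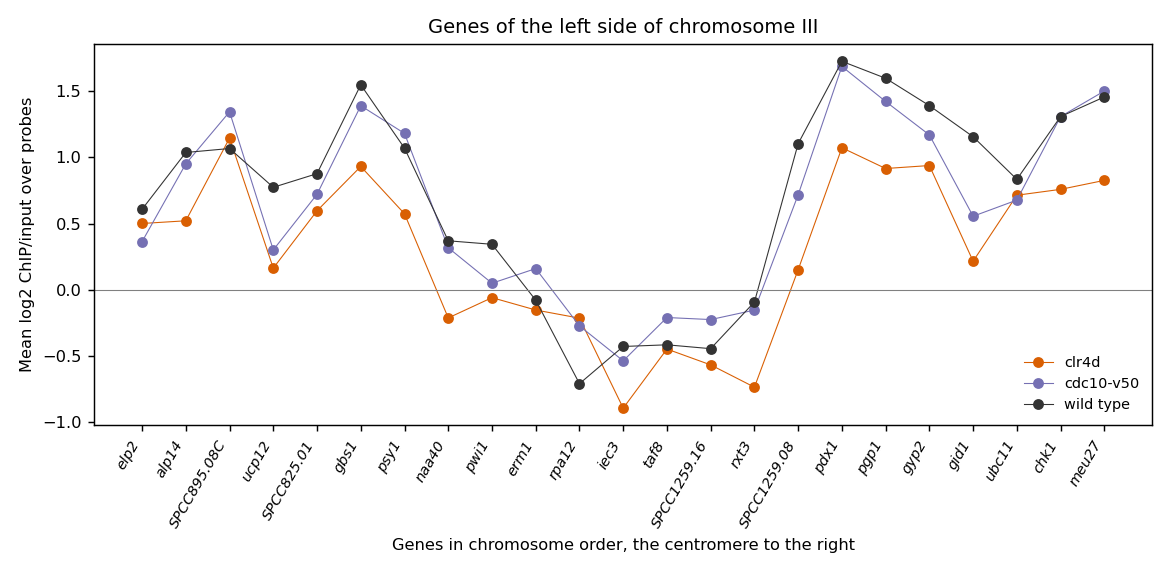
Mean log2 ChIP/input over the probes of each of the 23 measured genes on the left of chromosome III (y axis) in clr4d, cdc10-v50 and wild type, in chromosome order with the centromere to the right (x axis). Clr4d is below wild type in 21 of 23, and the highest gene is SPCC895.08C in clr4d (1.15) and pdx1 in cdc10-v50 (1.69) and wild type (1.73).

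The genes next to the centromere interval were chk1, which encodes the DNA damage checkpoint kinase, and meu27, which lies on the other strand within the span of chk1 and shares its probes. Chk1 had a ratio of 0.76 in clr4d, 1.31 in cdc10-v50 and 1.31 in wild type (15 probes, 3 saturated in wild type). Meu27 had 0.83, 1.50 and 1.46. Both overlapped a peak in cdc10-v50 and in wild type and none in clr4d. Ubc11, encoding a ubiquitin-conjugating enzyme that acts on mitotic cyclin, differed little between arrays, with 0.71 in clr4d, 0.68 in cdc10-v50 and 0.83 in wild type. Gid1, encoding a subunit of a ubiquitin ligase, had 0.21 in clr4d, 0.56 in cdc10-v50 and 1.16 in wild type. It was the lowest of the 23 genes for cdc10-v50 minus wild type (-0.60) and overlapped a peak in wild type alone.

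Further out, SPCC1259.08, pdx1, pgp1 and gyp2 lay, like gid1, under the longest wild-type peak. Pdx1, encoding a component of the pyruvate dehydrogenase complex, had 1.07 in clr4d, 1.69 in cdc10-v50 and 1.73 in wild type, the highest gene of the side in cdc10-v50 and wild type. Pgp1 had 0.92, 1.42 and 1.60, and gyp2, encoding a GTPase-activating protein, had 0.94, 1.17 and 1.39. SPCC1259.08 had 0.15 in clr4d, 0.72 in cdc10-v50 and 1.11 in wild type, and its difference clr4d minus wild type, -0.95 (SD 0.71, 8 probes), was the lowest of the 23. Next came gid1 (-0.94) and pgp1 (-0.68). Pdx1, pgp1 and gyp2 overlapped a peak in clr4d too, and SPCC1259.08 overlapped none there.

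Low genes lay between. Rpa12, encoding a subunit of RNA polymerase I, had -0.22 in clr4d, -0.28 in cdc10-v50 and -0.71 in wild type, and was the gene with the largest rise over wild type in both mutants (0.50 and 0.44, 3 probes). Taf8, encoding a subunit of the general transcription factor TFIID, had -0.45, -0.21 and -0.42, a difference of -0.03 between clr4d and wild type. Erm1 had -0.16 in clr4d, 0.16 in cdc10-v50 and -0.08 in wild type.

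In the outer part of this side, gbs1 was the highest gene in cdc10-v50 and wild type, and it is convergent with psy1. Gbs1 had 0.93 in clr4d, 1.39 in cdc10-v50 and 1.55 in wild type, and psy1, encoding a syntaxin of the cell surface membrane, had 0.57, 1.18 and 1.07. Ucp12 had 0.16 in clr4d, 0.30 in cdc10-v50 and 0.77 in wild type and overlapped a peak in wild type alone. SPCC825.01 had 0.60, 0.72 and 0.88. Alp14, encoding a microtubule polymerase, had 0.52 in clr4d, 0.95 in cdc10-v50 and 1.04 in wild type, and SPCC895.08C, convergent with it, had 1.15, 1.35 and 1.07. SPCC895.08C was the other gene, beside rpa12, that was not lower in clr4d than in wild type (0.08), with 3 of its 7 probes saturated in wild type. Without those probes and under normexp the difference turned to -0.14. Elp2, encoding a subunit of the Elongator complex, had 0.50, 0.36 and 0.61, and with a difference of 0.14 was the largest rise of clr4d over cdc10-v50, ahead of rpa12 (0.06) and ubc11 (0.04). The largest deficits of clr4d against cdc10-v50 were at meu27 (-0.68), pdx1 (-0.62) and psy1 (-0.61). For cdc10-v50 minus wild type, ucp12 (-0.47) and SPCC1259.08 (-0.39) followed gid1 at the low end, and SPCC895.08C (0.28) and erm1 (0.24) followed rpa12 at the high end.

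Median ratios were higher at boundaries between convergent genes than between divergent ones in all 3 arrays. Over the 3 probes nearest each boundary between neighbours, the 6 convergent boundaries of this side had a median of 0.99 in clr4d, 1.48 in cdc10-v50 and 1.39 in wild type. The 6 divergent boundaries had -0.01, -0.36 and -0.19, and the 11 tandem ones 0.26, 0.28 and 0.39. Between 50 and 1000 kb, 97 convergent boundaries had medians of 0.40, 0.35 and 0.13, and 96 divergent ones -0.33, -0.41 and -0.63. The ranges overlapped widely: the convergent boundary between iec3 and cox9 had -0.91, -0.42 and -0.33, and the divergent boundary between pdx1 and pgp1, under the longest wild-type peak, had 1.08, 1.53 and 1.54. Clr4d minus wild type had medians of -0.39 at convergent, -0.25 at divergent and -0.30 at tandem boundaries of this side. Between 50 and 1000 kb these medians were 0.20, 0.16 and 0.29. The best shift was -200 bp in the outer part of this side and 220 bp in the inner part. With tiles of 300 bp, the boundaries of this side are thus placed only roughly.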

How the data were processed

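Groups and dyes follow the labels. The deposited intensity values of both channels were background-subtracted and dye-normalized by Agilent Feature Extraction, per the file headers. The deposited log10 ratio is red over green. The authors' value table holds log2 of green over red and equals minus the scanner ratio within 0.001 on all 41551 probes; its sign was turned for an alternative. Here log2 of red over green processed signal was centred on each array's median. Non-uniform spots and the 5 clr4 probes of clr4d were left out, and saturated spots were kept. Windows hold at least 4 probes, peaks were joined within 1 kb, and bordering and other arm probes share no window. Normexp (offset 50) and loess used limma 3.58.1 in R 4.3.3, with median signals, since mean signals were not among the columns; all else used Python 3.11.15. The number of arrays, 1 per group, limits precision, and no test was made. Members, lists and the naming rule were chosen with earlier results of these data known. Named windows were the highest of each group and side and the 5 largest rises and falls of each comparison. Genes given with their own values overlapped a peak or were among the 3 largest rises and falls, and iec3 and cox9 were named for their boundary only. Columns of no listed sample numbered 0. The side median, window and peak steps were tested on simulated data, and the differences between arrays were not.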

Additional observations from a re-analysis of the deposited data

How the results depend on the processing

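No paired analysis was possible because each group is 1 array. Under the 9 alternatives (the authors' value table, normexp, loess, other centring, means, leaving out saturated or marked probes or the inner 5 kb, and keeping non-uniform spots) clr4d minus wild type stayed below 0 on all 6 sides. Over the bordering arms it ran from -0.76 under normexp to -0.34 under loess, against -0.51 as reported, clr4d minus cdc10-v50 from -0.53 to -0.34, and cdc10-v50 minus wild type from -0.23 under normexp to 0.006 under loess, where its sign turned. Clr4d minus cdc10-v50 kept its sign on all 6 sides, while cdc10-v50 minus wild type turned on 3 of 6 sides and in 4 of 5 distance steps. Of the 23 genes, 4 changed sign under at least 1 alternative for clr4d minus wild type (SPCC895.08C, elp2, erm1 and ubc11), 6 for cdc10-v50 minus wild type and 1 for clr4d minus cdc10-v50. With windows of 5 kb (67 windows), 3 had a clr4d ratio of at least 2-fold (4.48%, against 3.84% of all arm windows of 5 kb), with 12 of 161 as reported, 5 were at least 2-fold lower in clr4d than in wild type (7.46%, against 0.744%), with 19 as reported, and 0 lower than in cdc10-v50 (against 1.32%), with 4 as reported. Under normexp the same 3 counts over 161 windows were 25 (15.5%, against 9.99% of all arm windows), 52 (32.3%, against 4.58%) and 12 (7.45%, against 2.05%), and 4 windows were at least 2-fold lower in cdc10-v50 than in wild type (2.48%, against 1.91%), against 0 as reported. At a peak threshold of 1.2, clr4d had 6 peaks, against 13, and 5 wild-type peaks overlapped one, against 10. Without probes saturated in wild type, an alternative chosen after seeing the data, 4 did. The cause was not tested, except that longer windows are fewer and a higher threshold keeps fewer peaks. Signal over background limits little here: 1 of the 1069 probes was not well above background, in cdc10-v50.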
